A study of Macaca mulatta with 24 samples.

Results

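Unirradiated ileum was described from the 4 control arrays of the series, out of 24 arrays in all, which were taken by their titles and not by any measured value. Each array carried RNA from whole ileum of 1 rhesus macaque (Macaca mulatta) of its own, and the labels give the controls a dose of 0 Gy and day 4. The other 20 animals had received total body irradiation (TBI) from cobalt-60 at 6.7 Gy or 7.4 Gy. Their ileum was taken on day 4 (4 animals at each dose), on day 7 (4 at each dose) or on day 12 (2 at each dose). According to the methods of the study, the controls were sham-irradiated and all animals were young adult males without known disease. All controls therefore belong to day 4, and none was taken on the later days. Whole tissue mixes mucosa, muscle and nerve, so fewer cells of a type and less RNA per cell cannot be told apart in any value below.

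The ileum is the last segment of the small intestine. Its enterocytes take up bile acids through the transporter SLC10A2, carry them on the binding protein FABP6 and release them through SLC51A and SLC51B, and they also take up vitamin B12. Paneth cells at the base of the crypts secrete alpha-defensins, goblet cells secrete mucus, and the wall holds lymphoid follicles with B cells, antibody-secreting plasma cells, a coat of smooth muscle and the enteric nerve plexus.

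A level is the log2 of a probe's background-subtracted intensity minus the 75th percentile of its array, so that 0 is the signal at that percentile and a difference of 1 is 2-fold. A gene is given by the probe that was brightest over the controls. This choice bears on every order of animals given for a gene: of 4487 genes with a second probe above background, 32.7% had the same highest and the same lowest control on both, and of the 147 whose brightest probe spanned 4-fold it was 53.1%. In the controls, 83.2 to 88.1% of the 43603 probes lay well above background, compared with 72.7 to 88.1% over all 24 arrays, and no spot was saturated. Of 16143 genes with a symbol, 13892 were above background on all 4 controls, 1114 on 1 to 3 of them and 1137 on none. All controls sat in the first position of their slides, while the irradiated arrays sat mostly in the other positions. The arrays also differed in Y-linked genes: the Y-linked ribosomal protein gene RPS4Y2 had levels of 4.82, 4.86, -3.64 and -3.85 in controls 1 to 4. Replicates 1 and 2 of each group of 4, and replicate 1 of each day 12 group, lay between 4.67 and 5.10 on this probe, and the other 12 arrays lay between -4.42 and -2.04. This split gave 12 arrays against 12, cut across every group equally, and was seen without overlap on 28 probes, 11 higher in the first set and 17 in the second. The labels give no sex, and the split does not fall as the description of all animals as males would have it.

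The brightest named genes included those of alpha-defensins, MHC class I molecules, mitochondrial respiration and the ileal bile acid binding protein, beside 7 genes of other kinds whose probes disagreed. The 20 brightest had mean levels from 9.20 down to 8.26, and their SD over the 4 controls ran from 0.053 (FABP6) to 0.41 (MAMU-B), so that the animals were close to each other at the top of the range. COX3, a mitochondrial subunit of cytochrome c oxidase, stood at 9.21, 9.10, 9.32 and 9.16 in controls 1 to 4. CYTB, mitochondrial cytochrome b, had a mean of 8.58 ± 0.12 (SD, n = 4). FABP6 stood at 8.78, 8.75, 8.75 and 8.66 and thus spanned only 1.09-fold between the 4 animals. Each probe binds its target with its own efficiency, so the order of genes by brightness also reflects the probes.

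Alpha-defensins, antimicrobial peptides of Paneth cells and of neutrophils, gave 5 of the 20 brightest genes. These were annotated as alpha-defensin 6 precursor (LOC574383, mean 8.77 ± 0.14), alpha-defensin 2 (MNP2, 8.77 ± 0.082), oral alpha defensin 2 (ROAD2, 8.66 ± 0.13), alpha-defensin 2 precursor (LOC574309, 8.58 ± 0.21) and alpha-defensin 5 precursor (LOC574382, 8.35 ± 0.33; SD, n = 4 each). Defensin genes are near-identical copies, and a probe for one may bind the transcripts of others, so their separate levels are uncertain. LOC574382 stood at 8.54, 8.51 and 8.49 in controls 1 to 3 and at 7.86 in control 4. The MHC class I genes LOC100424348 (8.81 ± 0.34) and MAMU-B (8.45 ± 0.41) and their shared light chain B2M (8.40 ± 0.32) were also in the group, and MHC genes carry the same uncertainty. MAMU-B was highest in control 1 (8.83) and lowest in control 4 (7.89). FTH1, the ferritin heavy chain that stores iron, had a mean of 8.48 ± 0.22.

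For 9 of the 20 brightest genes, another probe of the same gene was far dimmer. The MHC genes LOC100424348 and MAMU-B each had 3 or more bright probes, but other probes had means of 1.05 and 0.93 for the former and 0.51 for the latter. UBE2B, a ubiquitin-conjugating enzyme, had a mean level of 9.19 on its brightest probe and of -1.52 and -1.91 on its other probes. ZDHHC15, a palmitoyltransferase, had 8.82 on the brightest probe and -4.64 and -7.73 on the others. PDP2 fell from 8.88 to -0.91 between its probes, FGD4 from 8.66 to -1.57 and -3.41, TNFRSF1B from 8.26 to -0.74 and RAB11FIP1 from 8.52 to 1.55 and 0.20. TASL had 8.98 and 8.40 on a pair of probes and -2.07 on another. The place of UBE2B, ZDHHC15, PDP2, FGD4, TNFRSF1B, RAB11FIP1 and TASL among the brightest thus rests on 1 or 2 probes each, whereas all probes of FTH1, B2M and MNP2 had means of 6.97 or more.

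**Figure D1:**
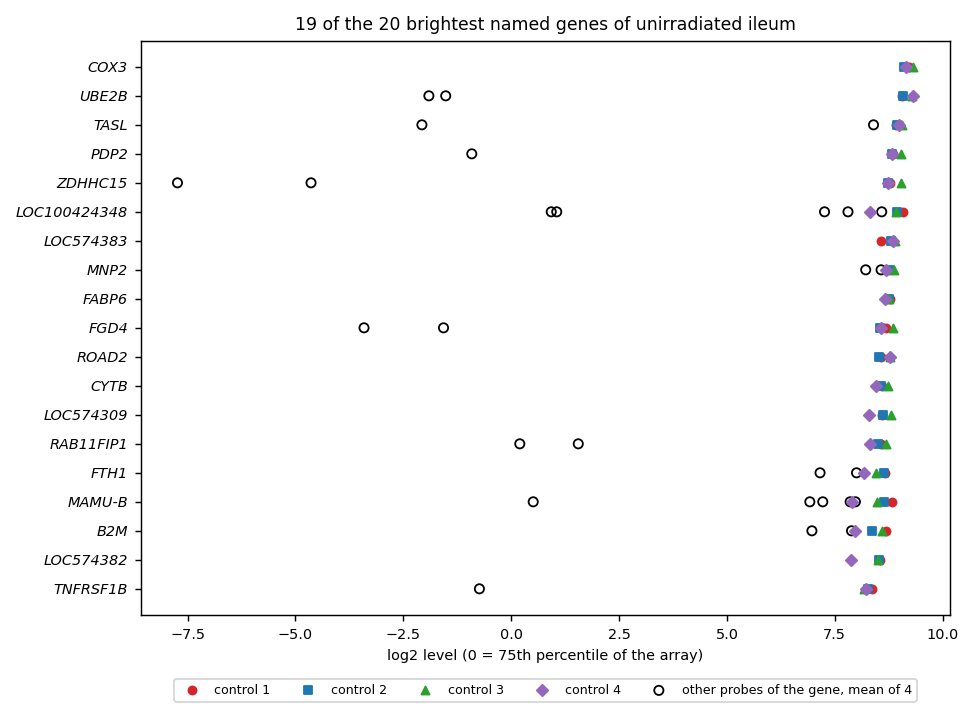
Levels (log2, 0 is the 75th percentile of the array) of 19 of the 20 brightest named genes, with 1 coloured symbol for each of the 4 controls on the brightest probe and open circles for the mean of the gene's other probes. The coloured symbols lie between 7.86 and 9.32, while the other probes of UBE2B, PDP2, ZDHHC15 and FGD4 lie below 0.

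Cell type genes were examined in 45 lists with 532 genes, of which 432 had a probe, 395 were above background on all 4 controls and 12 on none. The genes that mark ileum were present. SLC10A2 had levels of 4.40, 3.59, 3.40 and 2.20, SLC51A of 6.01, 4.79, 5.05 and 4.27, and NR1H4, the bile acid receptor, of 3.57, 2.84, 3.15 and 2.50. Among 6 genes of the proximal small intestine, lactase (LCT) had a mean of -3.64 ± 0.20 and GATA4, a transcription factor of duodenum and jejunum, was above background on none of the controls. Genes of neighbouring organs were not all absent: 5 of 6 genes of the proximal small intestine, 4 of 5 of stomach, 2 of 3 of pancreas and 6 of 7 of liver were above background on all 4 controls, as were 86.1% of all genes. Among them the trypsinogen PRSS1 had a mean of 3.88, with 2.80 on its other probe, and the plasma transport protein TTR had a mean of 1.06. The stomach gene GKN1 was above background on none and the pancreatic lipase PNLIP on 1 of 4. Albumin (ALB) was above background on 3 controls with levels of -6.80 to -5.27. ATP4A, the gastric proton pump, had a mean of 6.33 ± 0.23 on its brightest probe, but its other probe had a mean of -6.66. FABP2, an enterocyte marker, was above background only in control 2, and OLFM4, a crypt marker, only on 1 control, so that 1 probe each gave no usable level for these genes.

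Between the controls, 11 of the 37 lists with at least 5 measured genes spanned 2-fold or more. The level of a list is the mean over its genes of the deviation from the mean of the 4 controls. Over all genes above background on the 4 controls, 2477 of 13892 (17.8%) spanned at least 2-fold and 475 (3.42%) at least 4-fold, which is the background for the counts of members that follow. Likewise, control 1 was the highest for 28.7% and the lowest for 34.6% of these genes, control 2 for 19.04% and 22.5%, control 3 for 21.3% and 19.8%, and control 4 for 30.9% and 23.2%. The widest list was smooth muscle (5.84-fold), followed by B cells (3.28-fold), epithelial inflammation (3.18-fold), plasma cells (2.80-fold), antigen presentation (2.33-fold), interferon-stimulated genes (2.31-fold) and enteric neurons (2.23-fold). Fatty acid oxidation (2.20-fold), drug metabolism (2.17-fold), absorptive enterocytes (2.12-fold) and goblet cells (2.07-fold) made up the rest. The evenest list was that of 14 reference genes, at 1.12-fold.

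**Figure D2:**
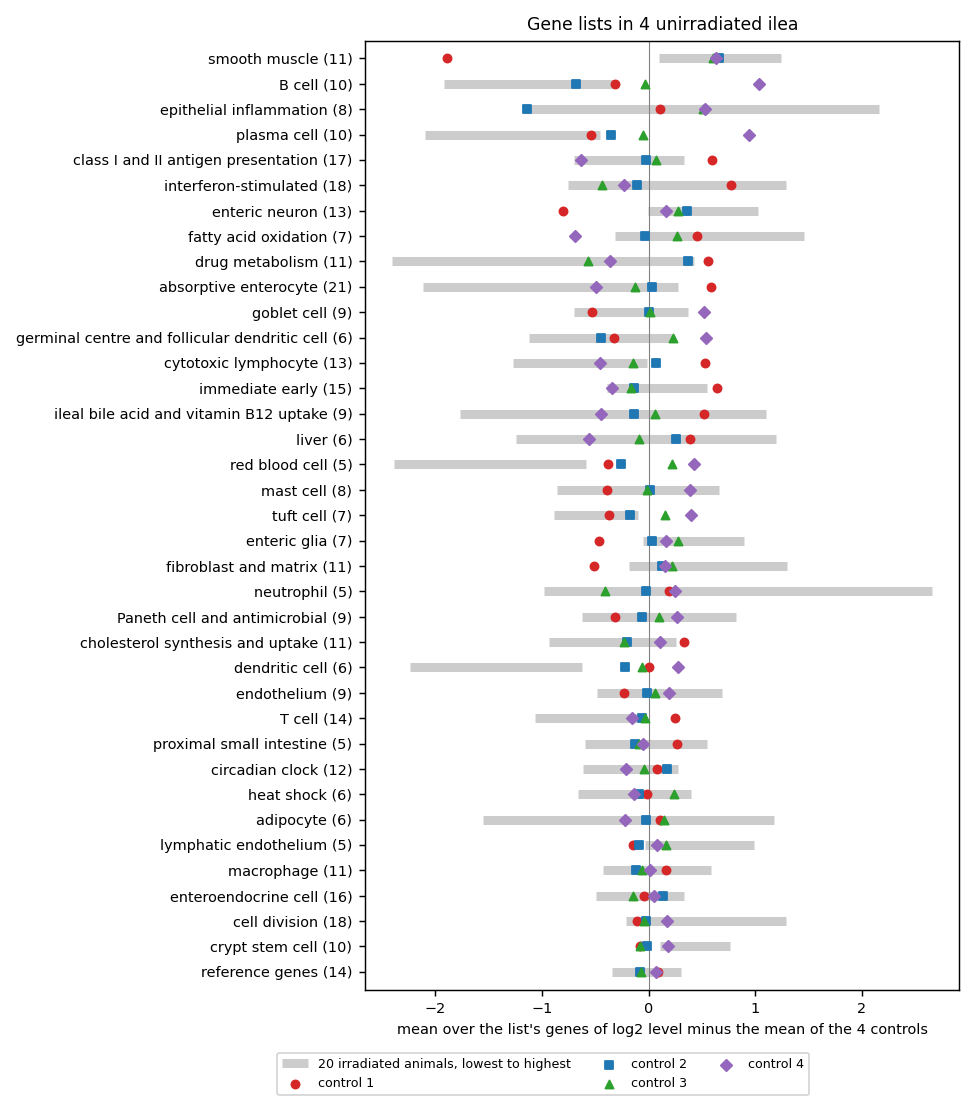
Level of each gene list in the 4 controls (mean over the list's genes of the log2 level minus the mean of the controls), with the number of genes in parentheses; grey bars run from the lowest to the highest of the 20 irradiated animals. Control 1 lies at -1.89 for smooth muscle, left of all other arrays, and control 4 lies at 1.03 for B cells, right of all others.

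Smooth muscle genes were lower in control 1 than in every other animal of the series. ACTG2, the actin of enteric smooth muscle, had levels of 5.04 in control 1 and 8.23, 8.22 and 8.01 in controls 2 to 4. The intermediate filament gene DES had 5.79 against 7.39, 7.45 and 7.39. The myosin light chain kinase gene MYLK had 3.43 against 6.51, 5.88 and 5.99. Controls 2 to 4 lay close together for each of these genes and control 1 lay apart. All 11 measured members were lowest in control 1, all 11 spanned at least 2-fold and 8 at least 4-fold. The list stood at -1.89 in control 1 and at 0.60 to 0.66 in the other 3 controls, and the lowest irradiated animal stood at 0.094. Without control 1 the list spanned 0.051 on the log2 scale.

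Genes of the enteric nerves followed the same order in control 1. UCHL1, a neuronal deubiquitinase, had levels of -1.28 in control 1 and 0.95, 0.78 and 0.85 in the others, and VIP, the vasoactive intestinal peptide, had -3.12 against -0.54, -0.97 and -1.53. Of 13 measured neuronal genes 9 were lowest in control 1, 10 spanned at least 2-fold and 5 at least 4-fold. TUBB3, neuronal tubulin, was an exception with 2.42 in control 1 and 0.83 in control 2. The list stood at -0.80 in control 1, and the lowest irradiated animal stood at -0.00078. Fibroblast and matrix genes were lowest in control 1 for 9 of 11 members, and the list stood there at -0.51, below all 20 irradiated animals (lowest -0.18). COL6A1, a collagen chain, had -0.17 in control 1 and 0.95 to 1.28 in controls 2 to 4, whereas COL6A2 had 6.27 and 6.24 to 6.44 on its brightest probe. The other COL6A2 probe, far dimmer, had -0.42 in control 1 and 0.87 to 1.102 in the others, as COL6A1 did. Enteric glia were lowest in control 1 for 5 of 7 genes, endothelium for 7 of 9 with a span of only 1.33-fold. Without control 1 the neuronal list spanned 0.19 and the fibroblast list 0.094 on the log2 scale.

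Enterocyte genes moved the opposite way. All 21 measured members of the absorptive enterocyte list were highest in control 1, 15 were lowest in control 4, and 15 spanned at least 2-fold but 0 spanned 4-fold. APOB, the structural protein of chylomicrons, had levels of 5.59, 5.16, 4.95 and 4.16 in controls 1 to 4. ENPEP, the brightest member and a brush border aminopeptidase, had 7.28, 6.80, 7.10 and 6.98. MTTP, which loads lipid on to APOB, had 4.45, 3.83, 3.76 and 2.67 and had the largest SD of the list (0.74). The list stood at 0.59, 0.031, -0.13 and -0.49, and without control 1 it spanned 0.52. Of the 9 genes for uptake of bile acids and vitamin B12, 7 were highest in control 1, including SLC10A2. TCN2, which carries vitamin B12 in blood, had the largest SD of these, with 2.95 in control 1 and 0.82 to 1.21 in the others. FGF19, the hormone that ileal enterocytes release on bile acid uptake, was highest in control 3 (-1.49) and lay between -3.19 and -2.77 in the others.

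The goblet and Paneth cell lists ran opposite to the enterocyte list. In controls 1 to 4 the goblet cell list stood at -0.53, 0.0075, 0.010 and 0.52. The Paneth cell list stood at -0.31, -0.057, 0.10 and 0.27. Enteroendocrine genes held no such order as a list, at -0.044, 0.14, -0.14 and 0.049. Not every goblet cell gene followed its list. ZG16, a goblet cell lectin, had levels of 8.09, 8.15, 8.15 and 7.72, and the main intestinal mucin MUC2 had 4.72, 5.31, 5.37 and 5.48. RETNLB, an antibacterial goblet cell protein, had the largest SD of the goblet cell list, with 1.998, 3.13, 2.77 and 5.46. Control 4 was highest for 5 of the 9 goblet cell genes and control 1 was lowest for 6. The Paneth cell list spanned 1.49-fold, and DEFA6 had 7.36, 8.28, 8.11 and 8.60. Enteroendocrine genes spanned 1.22-fold as a list, with NTS (neurotensin) falling furthest apart at 2.74, 1.94, 1.72 and 0.82. Crypt stem cell genes spanned 1.20-fold and cell division genes 1.21-fold. LGR5, the receptor that marks crypt stem cells, had levels of -3.14, -2.64, -2.75 and -2.57, and MCM5, a replication licensing factor, had 2.78, 2.78, 2.78 and 2.92. Within the cell division list, 12 of 18 genes were highest in control 4.

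B cell and plasma cell genes were highest in control 4. CD79B, the signalling chain of the B cell receptor, had levels of -0.18, -0.76, 0.13 and 1.17 in controls 1 to 4. MZB1, a chaperone of antibody assembly, had 0.42, 0.77, 2.12 and 4.34, and DERL3, a gene of endoplasmic reticulum degradation, had 0.99, 1.46, 1.81 and 4.08. Control 4 was thus the highest for all 3 genes, with the other controls apart by over 2-fold only for MZB1. In the B cell list 8 of 10 genes were highest in control 4, 8 spanned at least 2-fold and 5 at least 4-fold. For plasma cells it was 8 of 10 highest in control 4, with 8 past 2-fold and 3 past 4-fold. JCHAIN, the joining chain of secreted antibody, was an exception, with 2.85, 4.35, 4.77 and 3.47. FCRLA, a B cell Fc receptor-like gene, stood at 0.66 in control 1 and -1.06 to -0.83 in controls 2 to 4 on its brightest probe, but both its other probes were highest in control 4 (-1.28 and -4.38). Without control 4 the B cell list spanned 0.65 and the plasma cell list 0.49 on the log2 scale, compared with 1.71 and 1.48 with it. CXCL13, the chemokine of lymphoid follicles, had -2.16, -1.53, -0.46 and -0.087, so that controls 3 and 4 stood above controls 1 and 2.

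T cell genes were more even. The list spanned 1.32-fold, and 11 of 14 genes were highest in control 1. CD4 had levels of 3.63, 2.96, 3.14 and 3.60, and CD3D, a chain of the T cell receptor complex, had 2.07, 1.55, 1.89 and 1.37. CD8A had the largest SD, with 1.08, 0.49, 0.17 and -0.55. Genes of cytotoxic lymphocytes spanned 1.98-fold, 9 of 13 were highest in control 1 and 6 lowest in control 4. Granzyme A (GZMA), a protease of their granules, had 4.62, 2.84, 3.42 and 2.24. Macrophage genes spanned 1.22-fold, and C1QA, a complement subunit made by macrophages, had 5.47, 5.17, 5.11 and 5.10. SIGLEC1, a sialic acid receptor of macrophages, departed from its list on its brightest probe, with -0.23, 0.28, 1.31 and 2.75, but not on its other probe, which had -3.43, -3.32, -3.71 and -3.60. The mast cell list spanned 1.72-fold, with 6 of 8 genes highest in control 4 and 7 lowest in control 1. Of the neutrophil genes MPO was above background on none of the controls, and CAMP, the cathelicidin, had the largest SD with -2.07, -3.08, -4.44 and -1.35.

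Antigen presentation and interferon-stimulated genes were highest in control 1. MAMU-DQA1, an MHC class II chain, had levels of 4.00, 2.94, 2.50 and 1.77 and the largest SD of its list. Of 17 antigen presentation genes 15 were highest in control 1, 14 lowest in control 4 and 13 spanned at least 2-fold. TAPBP, which loads peptide on MHC class I, had 4.71, 4.71, 4.70 and 4.74 on its brightest probe, while its other probes were lowest in control 4, with 1.87, 1.38, 1.84 and 1.27 on one and -1.33, -1.27, -1.17 and -1.80 on the other, which was highest in control 3. ISG15, an interferon-induced ubiquitin-like protein, had 4.53, 2.73, 2.51 and 3.45. IFI6 had the largest SD of the interferon list, with 3.70, 2.55, -0.56 and 2.10. Of 18 interferon-stimulated genes 16 were highest in control 1, 10 lowest in control 3, 13 spanned at least 2-fold and 6 at least 4-fold. IFI27 was an exception and was highest in control 3 (4.11). Without control 1 the antigen presentation list spanned 0.70 and the interferon list 0.33 on the log2 scale, compared with 1.22 and 1.21 with it.

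Inflammatory genes of the epithelium were lowest in control 2 for 7 of 8 members. The inducible nitric oxide synthase NOS2 had levels of 1.93, -0.022, 3.07 and 2.93, the antibacterial lipocalin LCN2 had 3.97, 3.22, 4.02 and 4.58, and the chemokine CXCL1 had -2.48, -4.27, -2.33 and -2.42. DUOX2, an epithelial oxidase, had -2.26, -2.90, -1.15 and -0.22, and its maturation factor DUOXA2 had -3.21, -7.06, -2.44 and -0.50 and was not above background in control 2. Control 2 was thus the lowest for all 5 genes, and the other 3 controls differed among themselves less for CXCL1 than for DUOX2. The list stood at -1.14 in control 2 and at 0.10 to 0.53 in the others, and without control 2 it spanned 0.42. Which control was highest changed from 4 to 3 under quantile normalization and under median scaling.

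Immediate early genes, which cells switch on within minutes of a stimulus, spanned 1.97-fold, with 12 of 15 highest in control 1 and 8 lowest in control 4. FOS had levels of 5.35, 4.12, 2.68 and 1.63, and ATF3 had 3.97, 2.25, 1.49 and 1.19, whereas EGR1 had -4.48, -5.27, -4.99 and -5.14. Genes of drug metabolism were highest in control 1 for 9 of 11 members, and CYP2J2 had 2.04, 0.54, 1.12 and -1.03. Of the 7 genes of fatty acid oxidation 4 were highest in control 1 and 5 lowest in control 4. Cholesterol genes spanned 1.48-fold with 7 of 11 highest in control 1, heat shock genes 1.30-fold and circadian clock genes 1.30-fold. Fat cell genes spanned 1.30-fold as a list although ADIPOQ, the adipocyte hormone adiponectin, had -0.41, -1.66, 0.43 and -3.42.

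Low smooth muscle, neuron, matrix and goblet cell genes thus met in control 1 with high enterocyte, antigen presentation, interferon and immediate early genes. High B cell, plasma cell and goblet cell genes and low enterocyte genes met in control 4. The part of any one list in the others was not tested. The highest and the lowest control of each of the 11 lists that spanned 2-fold were the same under 64 of the 66 combinations of list and processing alternative run on the 4 controls, and the 2 exceptions were those of epithelial inflammation named above. The authors' normalized table uses the same scaling, so its agreement was fixed in advance. Settings with a control left out are not in this count.

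**Figure D3:**
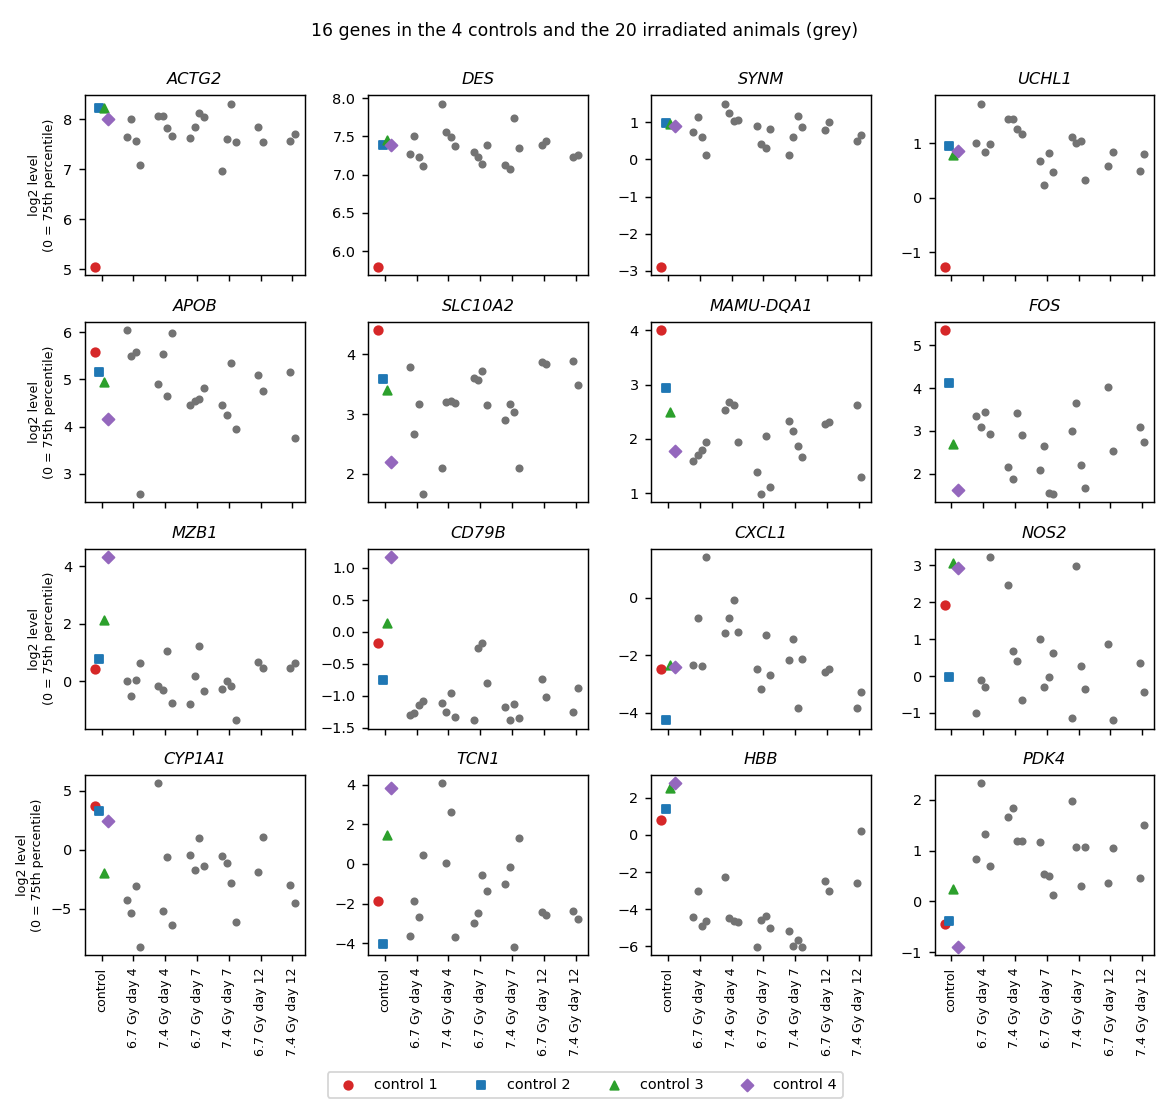
Levels (log2, 0 is the 75th percentile of the array) of 16 genes in the 4 controls (coloured symbols) and in the 20 irradiated animals by group (grey), each panel with its own axis. Control 1 stands below all other animals for ACTG2, DES, SYNM and UCHL1, control 4 stands above all for MZB1 and CD79B, and all 4 controls stand above all irradiated animals for HBB.

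Control 1 had the most genes to itself. A gene was counted for a control when that animal lay at least 2-fold beyond the nearest of the others while the other 3 lay within 2-fold of each other. Control 1 was lower for 346 genes (73 of them by at least 4-fold) and higher for 74. Control 2 was higher for 47 and lower for 22, control 3 higher for 18 and lower for 18, and control 4 higher for 97 and lower for 50. The 346 genes lower in control 1 included 10 of the 11 smooth muscle genes, 6 of the 13 neuronal genes and 2 of the 11 matrix genes, against 2.49% of all genes. The 97 genes higher in control 4 included 5 of the 10 B cell genes and 2 of the 10 plasma cell genes, against 0.698% of all genes.

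Genes that set a single control apart are named here after their values were seen. In control 1 large gaps below the nearest control were those of MAPK8IP2 (59.7-fold), the serotonin receptor HTR2B (16.4-fold), the muscle filament gene SYNM (13.99-fold), SMPX (12.9-fold), KCTD7 (12.6-fold), PDZRN4 (11.2-fold), the carbonic anhydrase CA14 (11.1-fold) and PLN (10.1-fold), the regulator of the calcium pump in muscle. SYNM had levels of -2.90, 0.99, 0.95 and 0.91, and PLN had -3.54, -0.19, 0.23 and -0.090. In control 2 the transporters SLCO1B3 (27.8-fold) and SLC22A13 (10.4-fold) and the recombination gene RAD54L (11.9-fold) were higher, and the chemokines CCL20 (3.85-fold), CXCL1 (3.46-fold), CXCL8 (2.80-fold) and CXCL2 (2.68-fold) were lower. CCL20, which draws cells to lymphoid follicles, had levels of 0.84, -1.97, 0.61 and -0.026. In control 3 KLHDC8A was 7.15-fold higher, and the DNA deaminase APOBEC3B (4.55-fold) and the quinone reductase NQO1 (3.46-fold) were lower. In control 4 GH1 (14.4-fold), PADI3 (13.6-fold), SRMS (11.9-fold) and DERL3 (4.79-fold) were higher, and the glutamate transporter SLC1A3 (5.68-fold) and TFF1 (4.46-fold) were lower.

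Pairs of controls differed to unequal degrees. Between controls 2 and 3, 3.51% of the 35201 probes above background on all 4 controls differed by at least 2-fold, and between controls 1 and 4 it was 11.2%. The remaining pairs lay between 4.08% (controls 3 and 4) and 7.84% (controls 1 and 3). Between controls 1 and 4, 575 probes were at least 4-fold higher in control 4 and 192 in control 1. Across probes, which are not independent replicates, Pearson's r between a pair of controls was 0.972 to 0.988. Of the 1239 probes that spanned at least 4-fold over the controls, control 1 was the lowest on 709 (57.2%) and control 4 the highest on 481 (38.8%).

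The most variable genes fell into Y-linked genes, genes with 1 control apart and genes that were graded over the 4 animals. RPS4Y2 (values above), EIF1AY and RPS4Y1 are Y-linked, and EIF1AY had levels of 2.005, 1.77, -5.81 and -4.96. Beyond these, TCN1, a secreted vitamin B12 binding protein, had the largest SD (3.49), with -1.85, -4.03, 1.47 and 3.84, a span of 234-fold. The other TCN1 probe had -2.30, -5.09, 0.99 and 3.56 and so gave the animals the same order. CYP1A1, the enzyme induced by ligands of the aryl hydrocarbon receptor, had 3.71, 3.29, -1.96 and 2.47, with control 3 lowest by far, and its other probe had -0.89, -1.55, -6.00 and -2.15. Both genes varied as widely in irradiated animals, from -4.19 to 4.06 for TCN1 and from -8.24, a signal not above background, to 5.65 for CYP1A1.

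MT-ND1, a mitochondrial subunit of complex I, had levels of -1.99, -0.010, -6.19 and -0.62, with control 3 lowest, and a span of 72.5-fold. All 20 irradiated animals lay between -1.51 and 0.97 on this probe, above controls 1 and 3. Another probe, which the files name ND1 and which stands for the same gene, was bright and even in the controls, with 7.14, 7.47, 7.64 and 7.39. The mitochondrial genes COX3 and CYTB were likewise even, whereas ND3 stood at 8.16 in control 1 and 5.92 to 6.76 in the others. LOC708249, an uncharacterized gene, had 1.18, 1.02, 3.22 and 6.37, and 1 of its 3 other probes had 0.92, 0.76, 2.87 and 6.10. The irradiated animals reached 3.25 on it, so that control 4 stood alone. LOC707609 was likewise highest in control 4 (3.47, against -1.53 to 0.010). LOC100423778, annotated as a G-protein coupled receptor, had 0.86, 2.59, 4.23 and 5.81. TRIM22, an interferon-induced antiviral gene, had -0.61, 0.84, 2.68 and 4.35, but its other probes had -1.47 to -2.05 and -2.65 to -3.31 and did not show this order. ENPP7, the intestinal alkaline sphingomyelinase, had -0.42, -3.12, -3.06 and -5.92, in the order of the enterocyte list at both ends.

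The remaining genes of the 20 most variable were mostly set by 1 animal. Control 1 stood alone for IZUMO2 (0.62 against -5.74 to -4.84), FEZF2 (0.10 against -4.82 to -4.17), OR56A1 (0.16 against -4.18 to -3.72), MAPK8IP2 (-4.85 against 1.05 to 1.25) and HTR2B (-6.699 against -2.66 to -2.32). The other MAPK8IP2 probe had -0.73, -0.80, -0.82 and -0.94 and did not set control 1 apart. Control 2 stood alone for SLCO1B3, the hepatic organic anion transporter (-0.90 against -5.84 to -5.70), on 1 of its probes. Control 4 stood alone for GH1, annotated as growth hormone 2 (-0.81 against -5.36 to -4.67). PDILT had -1.32, -1.70, -5.05 and -5.75, and SPATA17 had -2.71, -4.73, -0.26 and -4.72. Without control 1, 12 of the 20 genes remained among the 20 most variable, without control 4 it was 13, and with another background correction (normexp) 12.

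**Figure D4:**
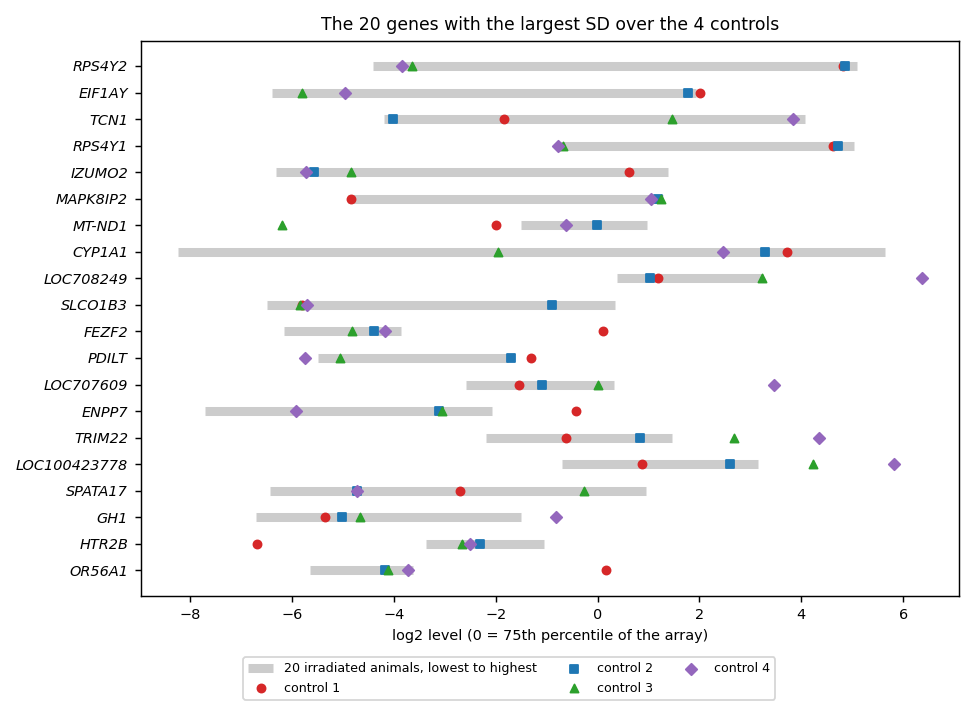
Levels (log2, 0 is the 75th percentile of the array) of the 20 genes with the largest SD over the 4 controls (coloured symbols), with grey bars from the lowest to the highest of the 20 irradiated animals. For RPS4Y2, EIF1AY and RPS4Y1 controls 1 and 2 lie on the right and controls 3 and 4 on the left; for LOC708249, LOC707609, TRIM22 and LOC100423778 control 4 lies beyond the bar.

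Some genes were above background in only 1 to 3 of the controls, where the span is a lower limit. GHV, annotated as growth hormone 2, was above background on 2 controls and spanned at least 101-fold, with levels of -5.87 in control 2 and -0.25 in control 4. It moved with GH1, a near-identical gene, and the 2 probes may share transcripts. ACSM5, a medium-chain acyl-CoA synthetase, was measured on 3 controls and spanned at least 91.6-fold, with -1.66, -0.23 and -4.60 in controls 1 to 3 and no signal well above background in control 4. DUOXA2, which lets the oxidase DUOX2 leave the endoplasmic reticulum, spanned at least 68.2-fold, and NOX1, another epithelial oxidase, at least 48.0-fold. NOX1 had -4.56, -3.47 and -1.01 in controls 1, 3 and 4 and was not above background in control 2, the order also seen for DUOXA2. OR4K15, an olfactory receptor gene, was above background in control 3 alone (-1.33) and spanned at least 48.2-fold.

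The most even genes above the 75th percentile are given by their brightest probes. PTCD3, a mitochondrial ribosome protein, had levels of 0.56, 0.56, 0.56 and 0.55. ICT1, a release factor of mitochondrial ribosomes, had 2.50, 2.49, 2.52 and 2.50, and AP2A2, a subunit of the clathrin adaptor, had 0.069, 0.024, 0.044 and 0.043. TAPBP, RNF187, UBP1, MBD6, TMEM205, RAB6A and CEP350 followed, and all 10 spanned 1.01-fold to 1.04-fold. These are the smallest spreads among the genes above the 75th percentile, so that a small value was fixed by the ranking. Other probes were less even, with ranges of 0.49 for PTCD3, 0.60 for TAPBP and 0.55 for RAB6A. Over the 20 irradiated animals PTCD3 ran from 0.30 to 1.58 and AP2A2 from -0.030 to 0.60. Of the usual reference genes, TFRC had levels of 3.76, 2.87, 3.88 and 3.92 and was the only 1 of 14 to span 2-fold, while GAPDH had 5.84, 5.74, 5.98 and 5.90.

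The spread over the 4 controls had a median SD of 0.24 on the log2 scale, and 80% of probes lay between 0.10 and 0.58. Of 35201 probes 6195 (17.6%) spanned at least 2-fold and 1239 (3.52%) at least 4-fold. Dim probes spread more: over 4 equal sets of probes ordered by level, the median SD was 0.29 in the dimmest set and 0.20 in the brightest. On 39 probes printed in 5 spots each, the median SD between spots of an array was 0.13 and that between controls was 0.28. The SD was above the error that the scanner software gave for the probe on 75.9% of probes. The median SD of the irradiated groups of 4 was 0.30 at 6.7 Gy on day 4, 0.23 at 7.4 Gy on day 4, 0.20 at 6.7 Gy on day 7 and 0.24 at 7.4 Gy on day 7, so that the controls lay within the range of these groups. The share of probes past 4-fold was 3.98%, 2.03%, 1.23% and 2.30% in these groups. Without control 1, 621 probes spanned at least 4-fold in the controls, and without control 4 it was 754.

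**Figure D5:**
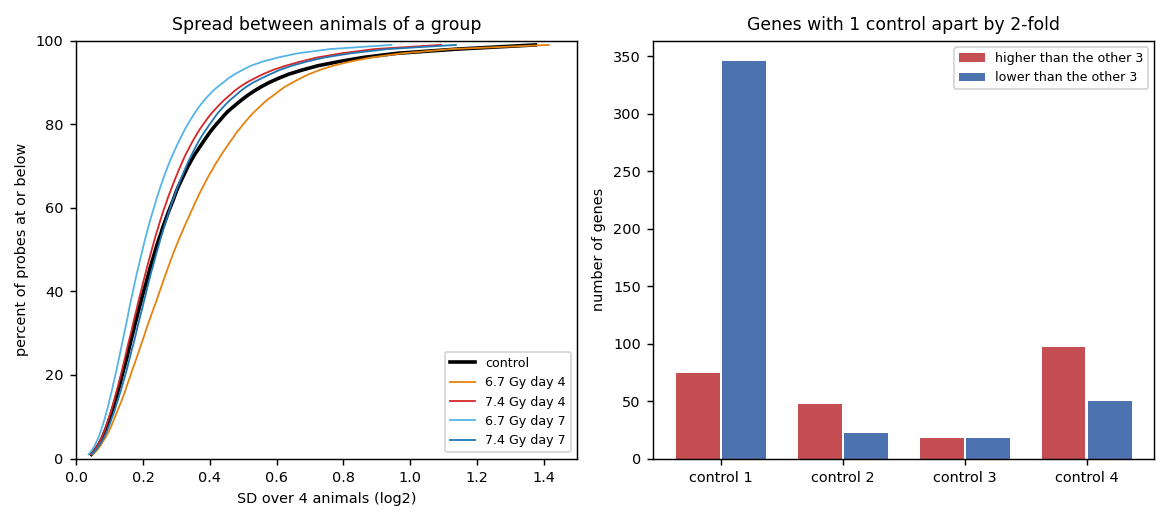
Left, cumulative percent of probes by their SD (log2) over the 4 animals of each group; the control curve (black) has its median at 0.24, between 6.7 Gy day 7 (0.20) and 6.7 Gy day 4 (0.30). Right, number of genes with 1 control at least 2-fold beyond the other 3, which is 346 for genes lower in control 1 and at most 97 elsewhere.

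Whether the controls differed more among themselves than irradiated animals of a group was tested with limma on the absolute deviations from the group mean, over 20 arrays and 30530 probes. At an adjusted p under 0.05, 64 probes (0.21%) were more spread in controls and 1 (0.00328%) was less spread. The p-values measure only the spread between these animals. PHKG1, a subunit of muscle phosphorylase kinase, had control levels of -5.95, -2.51, -4.86 and -2.08, an effect of 1.48 ± 0.17 (SE) and an adjusted p of 0.000386 by limma. Against day 7 alone PHKG1 lost its call, with an effect of 1.37 (adjusted p = 0.0616 by limma). SYNM had an effect of 1.37 ± 0.27 (adjusted p = 0.0475 by limma), and SMPX, with levels of -3.41, 0.89, 0.28 and 0.37, had 1.43 ± 0.29 (adjusted p = 0.0493 by limma). PDZRN4 had an effect of 1.29 ± 0.26 (adjusted p = 0.0488 by limma). For these 3 genes control 1 was the animal apart, and without it their effects were -0.26 for SYNM, 0.034 for SMPX and -0.16 for PDZRN4. With the replicate block the adjusted p by limma was 0.0629 for SYNM, 0.0572 for SMPX, 0.0814 for PDZRN4 and 0.0639 for CIB2, and with normexp it was 0.0545 for SMPX and 0.0819 for PDZRN4. With deviations taken from the group median it was 0.996 for SYNM, SMPX and PDZRN4 and 0.241 for CIB2, and against day 4 or day 7 alone it was 0.213 to 0.394 for these 4 genes, so that none of their calls held under these settings. CIB2, a calcium and integrin binding protein, had levels of 2.29, 2.33, 4.29 and 6.07, an effect of 1.25 ± 0.24 and an adjusted p of 0.0420 by limma, which became 0.0668 to 0.214 without control 1, 2 or 4. HBA, an alpha globin gene, was also more spread in the controls, with levels of 0.37, 0.75, 2.07 and 2.38 and an adjusted p of 0.00194 by limma.

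The level of the controls was compared with the mean of the 6 irradiated groups over 36108 probes with limma. At an adjusted p under 0.05 and at least 2-fold, 90 probes (0.249%) were higher in the controls and 57 (0.158%) lower. HBB, the beta globin of red blood cells, had control levels of 0.80, 1.38, 2.51 and 2.77 and irradiated levels of -6.03 to 0.20 with a median of -4.59. No irradiated animal reached the lowest control, and HBB was 51.4-fold higher in controls (adjusted p = 6.41e-06 by limma). HBA was 7.55-fold higher (adjusted p = 6.41e-06 by limma) with all 20 irradiated animals below all controls. HBA1, another alpha globin gene, was not called, with 7.16, 6.80, 7.22 and 7.08 in the controls and 6.64 to 7.29 in the irradiated animals. Both HBB and HBA were lower in controls 1 and 2 than in controls 3 and 4. Alpha globin genes are near-identical copies, so the separate values of HBA and HBA1 are uncertain.

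Immune cell genes made up most of the called list members. Of 10 B cell genes tested 4 were higher in controls, namely CD79B, BANK1, CD79A and VPREB3. VPREB3, a chaperone of the B cell receptor, had control levels of -3.69, -4.12, -3.57 and -2.44 and was 6.58-fold higher (adjusted p = 0.00238 by limma). Its signal was above background on only 10 of the 20 irradiated arrays, so this fold rests partly on undetected signal. Against day 12 alone VPREB3 differed by 2.34 on the log2 scale and was not called (adjusted p = 0.0561 by limma). CD79B, whose values are given above, was 2.18-fold higher (adjusted p = 0.0158 by limma), with 17 of 20 irradiated animals below all controls. The median difference over the 10 genes was 1.37 on the log2 scale, against 0.023 over all probes tested. As the controls themselves ran 3.28-fold apart on this list, the call was tested without single controls, and 4 of 10 genes were called without control 1, 1 without control 4 and 1 without control 3. With control 4 left out the median difference of the list was 0.96. With normexp background correction 1 of 10 genes was called, the median difference was 0.57, and VPREB3 differed by 0.98 on the log2 scale, under 2-fold.

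Of 6 dendritic cell genes 3 passed the threshold higher in controls, but FLT3 and CD1C had entered the fit through the controls alone, being above background on every array of no irradiated group, so that a difference was built into their selection and their p-values are not given. CLEC9A, a receptor of cross-presenting dendritic cells, had control levels of -1.99, -2.44, -2.67 and -2.72, and was 6.51-fold higher (adjusted p = 0.0201 by limma). Its signal was above background on 13 of the 20 irradiated arrays, so this fold too rests partly on undetected signal. It lost its call when any 1 control was left out, with adjusted p of 0.0541 to 0.104 by limma, and with the methods' t-test (adjusted p = 0.200), and against day 12 alone it differed by 1.29 on the log2 scale (adjusted p = 0.618 by limma). FLT3, the receptor that drives dendritic cell development, had -4.27, -4.53, -4.69 and -4.77, and was 3.45-fold higher. With signal above background on only 8 of the 20 irradiated arrays, the FLT3 fold also rests partly on undetected signal. CD1C, a lipid-presenting molecule, was above background on all controls and on none of the 20 irradiated arrays, and was at least 2.02-fold higher. The mean of the list lay lower in all 20 irradiated animals than in all controls. It and the median differences of the list contain FLT3 and CD1C, so part of these differences was built in by selection. With normexp 1 of the 6 genes was called, and the median difference fell from 1.56 to 0.39; without control 4 it was likewise 1 gene, and without control 1 or 3 it was 2. The plasma cell, T cell and mast cell lists had 1 called gene each, and the cytotoxic lymphocyte, macrophage, germinal centre, neutrophil and eosinophil lists had 0. The called genes were TNFRSF17, the survival receptor of plasma cells (3.69-fold, 1 of 10 genes), ICOS, a T cell costimulator (2.15-fold, 1 of 15), and FCER1A, the IgE receptor chain of mast cells (3.80-fold, 1 of 8), all higher in controls. The plasma cell call was lost with any 1 control left out, with normexp and with the replicate block, the T cell call without control 1, 2 or 4 and with normexp, and the mast cell call without control 1 or 4. FCER1A was even among the controls, with -0.96, -1.15, -1.07 and -1.16. As lists over members above background on all 4 controls, T cells lay below all controls in 19 irradiated animals and plasma cells in 18. Mast cells lay below in 9 and above in 1.

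Outside the lists, LOC718975, annotated as an EGF-like mucin-like receptor, had control levels of -4.01, -3.20, -5.12 and -1.93. It was above background on 9 of 20 irradiated arrays and on none in 2 groups. With those 2 groups raised to the dimmest detected signal it was 5.72-fold higher in the controls. This fold still rests partly on undetected signal in other groups. Only 13 of 20 irradiated animals lay below all controls, and against day 4 alone the difference was 1.61 on the log2 scale. The threshold was missed without control 1, 2 or 4. It too had entered the fit through the controls alone.

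Among the genes lower in the controls, ANKRD65 and LCN15 were dim there and had entered the fit through the irradiated groups alone, so that their p-values are not given. ANKRD65, which the array design names as a like gene of the ankyrin repeat and SOCS box family, was above background on 1 control only, with levels of -8.09, -6.58, -8.28 and -5.35, and on all 20 irradiated arrays (-5.25 to -0.82). LCN15, a lipocalin, had -6.04, -5.51, -6.21 and -5.12 and was above background on 3 controls; 19 of 20 irradiated animals lay above all controls. EDA2R, a death receptor gene induced by p53, had control levels of -3.69, -2.63, -2.39 and -2.53 and was 5.93-fold lower in controls (adjusted p = 6.41e-06 by limma). GDF15, a stress-induced hormone, had -0.27, -0.30, -0.23 and 0.083 and was 5.71-fold lower (adjusted p = 3.93e-05 by limma). CNDP1, a dipeptidase, was 5.13-fold lower (adjusted p = 0.00104 by limma). Against day 12 alone CNDP1 differed by -1.21 on the log2 scale, with an adjusted p of 0.320 by limma, and LCN15 by -1.20. With the methods' t-test LCN15, GDF15 and CNDP1 were not called. For EDA2R, GDF15 and CNDP1 all 20 irradiated animals lay above all controls. Within the first slide position, against 2 arrays of 6.7 Gy day 4, CNDP1 (adjusted p = 0.0513 by limma) and EDA2R (adjusted p = 0.0794 by limma) were not called. PDK4, the kinase that shuts pyruvate out of oxidation, was the only list member lower in controls (2.64-fold, adjusted p = 0.0189 by limma), with -0.45, -0.38, 0.24 and -0.90 in the controls and 0.13 to 2.32 in the irradiated animals. This call was lost without control 1, 2 or 4.

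No member of the smooth muscle, absorptive enterocyte, goblet cell, Paneth cell, crypt stem cell or cell division lists was called between the controls and the 6 irradiated groups together, although on the 12 arrays of controls and day 4 some were: 2 of 22 enterocyte genes and 2 of 9 goblet cell genes were higher in controls, against 0.338% of all probes, and 2 of 11 crypt stem cell genes and 1 of 18 cell division genes were lower, against 0.593%. Of the crypt stem cell genes, 2 were also lower in controls without control 4 and 1 without control 3, and of the cell division genes 1 without control 2. Smooth muscle and enterocyte genes were those for which the controls themselves were farthest apart or lay in one order, and a p that misses the threshold does not show that levels were alike. With the array position as a term, which could be fitted for the 12 arrays of controls and day 4, 42 probes were called instead of 336 without it, and within the first position (4 controls and 2 arrays at 6.7 Gy on day 4) 5 were called. The list counts for day 4 given above are from the fit without this term, so position may enter them. In both of these fits 0 of the 10 B cell genes and 0 of the 6 dendritic cell genes were called, with median differences of 1.57 and 1.61 for B cells and of 1.43 and 1.07 for dendritic cells. HBB differed by 5.23 on the log2 scale in the fit with position, with an adjusted p of 0.0534 by limma, and by 5.60 within the first position, with an adjusted p of 0.102 by limma. For HBA the difference was 3.07 with position (adjusted p = 0.0890 by limma) and 3.14 within the first position (adjusted p = 0.212 by limma).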

How the data were processed

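Total RNA of whole ileum was hybridized by the authors to Agilent single-color Rhesus arrays, 1 array for each of 24 animals. Per the file headers, Feature Extraction 11.0.1.1 was used, and the column analysed holds processed intensity values of each spot after background subtraction. The deposited raw table matched these intensities within 1e-05 for 43553 probes of 1 spot. The authors' deposited normalized table holds log2 values shifted by the 75th percentile of each array and centred for each probe, so it gives differences but no levels.

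Of 45220 spots 43803 were not controls. Repeated spots were combined as the mean of their log2 values, outlier spots were left out where the probe had another spot, and the 75th percentile over probes was subtracted. A symbol was known for 23799 probes, from the authors' table and, for the 8317 with a matching accession, from RefSeq (T2T-MMU8v2.0). No coordinates are printed because the build of the array design is not given in the sources used here. Groups came from the titles, and arrays titled day 12 were kept so although a protocol text names another day. Animals with the same replicate number did not deviate together (correlations of -0.29 to 0.34, median 0.022), so the numbers were not taken as pairs.

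Both fits used limma 3.58.1 (R 4.3.3; other steps Python 3.11.15, numpy 2.4.6, pandas 2.3.3) and were tested on simulated data. An adjusted p is limma's p-value adjusted by the Benjamini-Hochberg method across every probe in the fit. The level fit took probes detected on every array of 1 group or more, and the spread fit, on the controls and the 4 irradiated groups of 4, compared absolute deviations from the group mean for probes detected on all these arrays. Where a control or a whole group was not above background, its signal was set no lower than the dimmest detected signal of that array, which gives a lower limit to the fold. It is no strict limit where undetected arrays remained in other groups.

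The genes named are the 20 brightest, the 20 with the largest and the 10 with the smallest SD (the latter with a level above 0), 5 measured on 1 to 3 controls, up to 3 brightest members and the member of largest SD of each list, and up to 5 called genes in each direction of each fit. Other list members and genes set apart in 1 control were named after their values were seen. Some genes that this rule names are not reported here. The members and lists were chosen with earlier results of these data known. Alternatives were normexp background correction (on median signals, offset 50), other scalings and filters, other probes of a gene, single controls left out, a replicate block, the slide as a block, single days and the methods' t-test. The fits with array position and on the 12 arrays of controls and day 4 were added after seeing the data. Precision is limited by having 4 control animals.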

Additional observations from a re-analysis of the deposited data

Results flagged for a closer look

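Of 100 items examined (63 named genes and 37 gene lists), 17 had 1 control whose gap to the nearest other control, divided by the range of the 4 controls, was at or above Dixon's limit of 0.829. Chance gives about 1 in 20, and 6.84% of all genes above background on the 4 controls passed. Control 1 was the animal apart for the lists smooth muscle (0.98), fibroblast and matrix (0.872) and enteric neuron (0.838), and for SYNM (0.978), MAPK8IP2 (0.967), HTR2B (0.922), PDZRN4 (0.921), OR56A1 (0.893), FEZF2 (0.869), SMPX (0.859) and IZUMO2 (0.859). Control 2 was apart for SLCO1B3 (0.972), and control 4 for LOC574382 (0.922), GH1 (0.848) and TAPBP (0.829), the last with a range of only 1.03-fold. Control 3 was apart for ZDHHC15 (0.862) and PDP2 (0.852). The genes were partly picked for a large or small spread, so their share of 14 in 63 is not comparable with the share over all genes. Of the 37 lists only those named above passed, a share near that over all genes.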

How the results depend on the processing

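With each control left out, 621 (without control 1) to 1073 probes spanned at least 4-fold instead of 1239 (754 without control 4), and 3 (without control 1) to 10 lists spanned 2-fold instead of 11 (5 without control 4). The 4-fold count was 645 with normexp, 3096 over all probes and 475 over genes. The 65 probes of the spread fit became 103 with normexp, 550 with limma's trend and robust options, 11 with deviations from the median, 21 against day 4 alone, 12 against day 7 alone, 33 with a replicate block, and 91 (without control 1) to 914 (without control 3) with a control left out (762 without control 2, 548 without control 4). In the spread fit SYNM ran from -0.262 (without control 1) to 1.808 and PDZRN4 from -0.164 (without control 1) to 1.731. The 147 probes of the level fit (90 higher, 57 lower) became 61 with normexp (25 higher, 36 lower), 94 over probes above background on all arrays, 54 with the methods' t-test, 743 against day 4 alone (275 higher, 468 lower), 88 against day 12 alone, 70 (without control 4; 33 higher, 37 lower) to 132 with a control left out (87 without control 1), 336 on the 12 arrays of controls and day 4 (122 higher, 214 lower), 42 there with array position (8 higher, 34 lower), and 5 within the first position. Array position over all groups could not be fitted. With the replicate block the level fit called 131 probes, and SYNM, SMPX, PDZRN4 and CIB2 lost their calls in the spread fit (0.0572 to 0.0814); the causes were not tested. Of results for single genes and lists, 881 values stayed near the main value or, in the fits, kept their sign and call. SDs, list ranges and counts have no call, and 84 of these moved further. In the fits 62 values lost the call and 2 turned (SYNM and PDZRN4, above). Of the 20 brightest genes 11 remained when the probes of a gene were averaged, and 19 or 20 under the other alternatives run. Probes near background limit the dim genes.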
